A study of Mus musculus with 24 samples.

Results

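The genes described here encode the machinery that imports proteins into mitochondria and a set of small proteins with paired-cysteine (CHCH) folds, many of which that machinery brings in. They were picked by a rule on names: every gene whose symbol starts with Timm, Tomm or Chchd, together with Immt, Samm50, Apoo and Apool. Earlier results of these data were known when the genes and lists were chosen. The rule on names found 36 of the 10393 genes in the table of hearts taken at 16 h. In the table of 72 h it found 33 of the 7723 genes, of which 7703 were tested. The 3 genes absent from the 72 h table, Chchd5, Chchd6 and Timm8a1, were therefore described at 16 h alone.

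The study sequenced hearts of wild-type mice given doxorubicin, an anthracycline chemotherapy drug that can injure the heart, or hesperitin, a citrus flavanone usually spelled hesperetin. The 16 h hearts fell into 4 groups of 3 libraries each. V received vehicle; H received hesperitin, 10 mg/kg each day; DOX received doxorubicin, 25 mg/kg; DOXH received the 2 compounds together. At 72 h, 3 V and 3 DOX libraries were used, which gave 18 libraries in all; the number of the DOX library given last at 72 h matches none of the labels, and that library was taken as the third of its group because its column is named DOX and the group has 3 samples. Strain, sex, age and the number of animals behind each library do not appear in the labels, and p-values therefore describe only how far these libraries spread, which may be technical. Total counts were 9255708 to 11074498 per library in V, DOX and DOXH at 16 h, 17664089 to 19869092 in H, and 16607839 to 20587603 at 72 h. Levels are given in CPM, the count of a gene relative to the library total, scaled within a table by TMM factors, and cannot be compared between the 2 times. Changes are log2 fold changes with their SE from edgeR's quasi-likelihood test, called at an adjusted p under 0.05 over all genes tested.

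Nearly all mitochondrial proteins are made in the cytosol and must cross the organelle's membranes unfolded. The TOM complex is the entry gate of the outer membrane. Behind it the routes divide: SAM inserts barrel proteins into the outer membrane, the MIA pathway folds cysteine-rich proteins in the intermembrane space, small TIM chaperones carry hydrophobic cargo across that space, TIM22 inserts carrier proteins into the inner membrane, and TIM23 with its motor pulls presequence proteins into the matrix. MICOS, which includes several CHCH proteins, holds the cristae junctions of the inner membrane and contacts TOM and SAM. Heart muscle is packed with mitochondria, and some of these routes supply its respiratory chain.

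With doxorubicin, most genes of the TIM23 translocase and of MICOS were lower at both times. At 16 h, 16 of the 36 genes fell, 1 rose and 19 did not pass the test, against a background of 16.6% of all genes lower, 15.6% higher and 32.3% in either direction. An unadjusted p under 0.05 was found for 19 of them and for 45.4% of all genes. Their median change was -0.27 on the log2 scale, against 0.02 for all genes. The DOX libraries lay all below the V libraries for 23 of the 36 and all above for 3, against 28% and 28.4% of all genes. At 72 h, 19 of the 33 genes fell, 4 rose and 10 did not pass, where 27.2% of all genes were lower, 26.5% higher and 53.7% either. An unadjusted p under 0.05 was found for 23 of them and for 59.6% of all genes. The median was then -0.30, against 0.01 for all genes, and the groups stood apart downwards for 18 and upwards for 5, against 32.2% and 31.3% of all genes. By role, 5 of 6 TIM23 genes and 4 of 5 MICOS genes were lower at 16 h, and 4 of 6 and 4 of 4 at 72 h. Of the 33 genes tested at both times, 14 were lower at both, which is 93.3% of the 15 lower at 16 h and 73.7% of the 19 lower at 72 h. Among all 7405 genes tested at both times, 12.6% were lower at both. No gene of the set was higher at both or was called in opposite directions, against 6.47% and 2.28% of all genes.

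**Figure D1:**
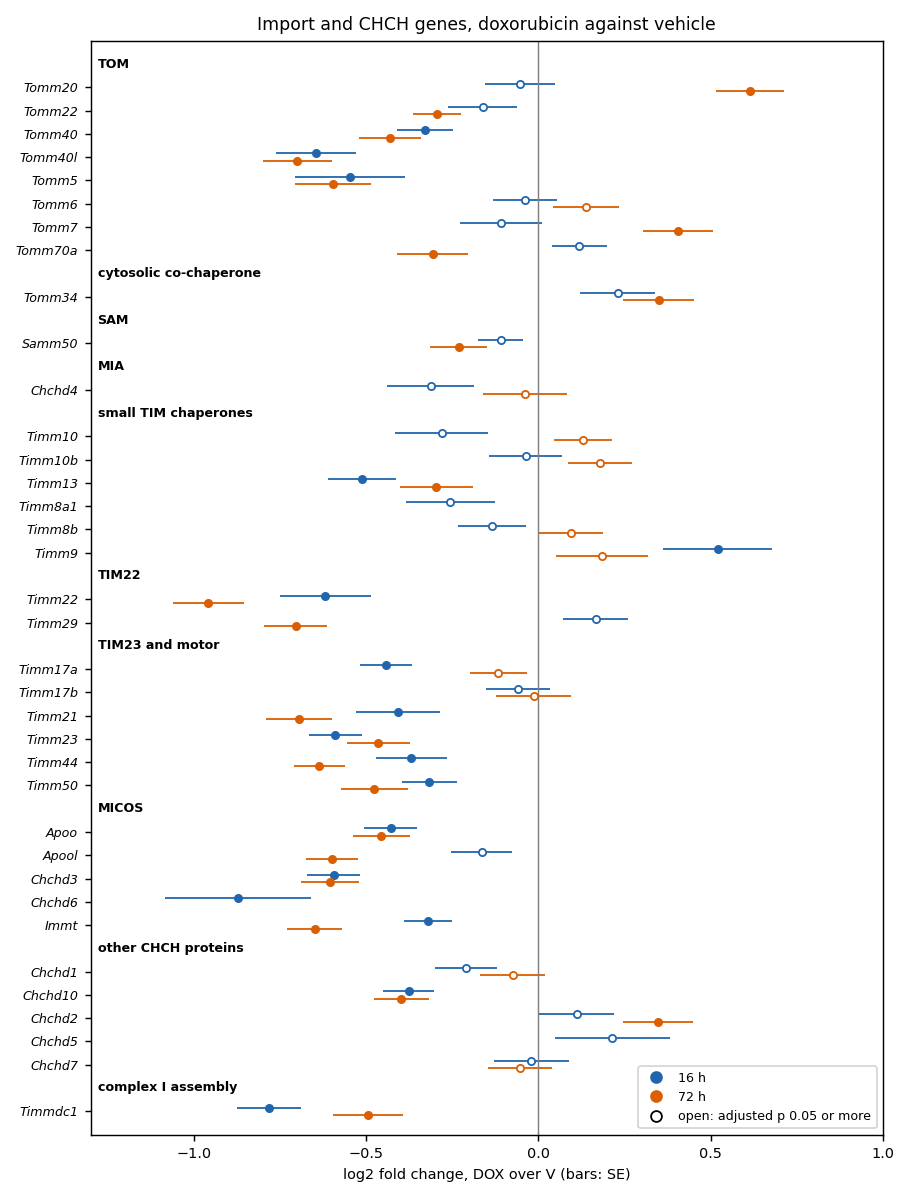
Log2 fold change of DOX over V (horizontal axis, bars are SE) for each import and CHCH gene, grouped by role, at 16 h (blue) and 72 h (orange), with filled points for an adjusted p under 0.05. The MICOS and TIM23 points lie left of 0 at both times, while Tomm20 lies near 0 at 16 h and at 0.61 at 72 h.

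All 36 genes were found by identifier in the GENCODE annotation of GRCm38, at loci on many chromosomes rather than in 1 cluster. Promoter sequence from RefSeq (GRCm38.p6) was at hand for 31 of them, as the 250 bases before the annotated start. Motifs of 4 factors known to act on nuclear genes for mitochondrial proteins were searched on both strands. The ETS motif of GABPA, CCGGAAG, was present for 11 of the 31 genes (35.5%), counted in any promoter of the gene. It was in 6.91% of all 32851 promoters, counted singly, and for 16.3% of 8316 genes in the tables, counted per gene. Only the second share has the same unit as that of the set, and the shares for the other motifs follow in this order. The NRF1 motif, GCGCA and GCGC with 1 base of any kind between them, was in 2 (6.45%, against 3.74% and 9.84%), the half-site of the oestrogen-related receptors AAGGTCA in 2 (6.45%, against 4.08% and 3.39%) and the YY1 motif ATGGCGG in 1 (3.23%, against 2.21% and 4.81%). A match is a string of letters and not a shown binding site. The ETS promoters belong to Chchd3, Chchd5, Immt, Timm10, Timm23, Timm29, Timm8b, Timmdc1, Tomm22, Tomm34 and Tomm70a. At 16 h 4 of these 11 fell, and at 72 h 7 of the 10 measured fell and 1 rose. In the whole set 44.4% fell at 16 h, and 57.6% fell and 12.1% rose at 72 h. Of all genes, 16.6% fell at 16 h, and 27.2% fell and 26.5% rose at 72 h. Whether the motif goes with the changes was not tested.

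The promoters of 4 genes are printed, 3 of genes that fell at both times and that of Tomm20, which rose at 72 h, to show where the motif lies. Each reads 5′ to 3′ in the direction of its gene and ends at the base before the start that RefSeq gives, which for Immt and Tomm20 is not the start in the GENCODE annotation, and capitals mark the ETS motif or, in Tomm20, the NRF1 motif, on either strand. The Chchd3 promoter lies at chr6:33060261-33060510 on the minus strand, that of Immt at chr6:71831070-71831319 on the plus strand, that of Timmdc1 at chr16:38522664-38522913 on the minus strand and that of Tomm20 at chr8:126945922-126946171 on the minus strand.
Chchd3: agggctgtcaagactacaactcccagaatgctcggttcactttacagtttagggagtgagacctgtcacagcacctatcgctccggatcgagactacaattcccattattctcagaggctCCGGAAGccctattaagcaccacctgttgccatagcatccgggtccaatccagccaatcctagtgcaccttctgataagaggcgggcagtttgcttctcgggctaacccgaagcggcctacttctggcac
Immt: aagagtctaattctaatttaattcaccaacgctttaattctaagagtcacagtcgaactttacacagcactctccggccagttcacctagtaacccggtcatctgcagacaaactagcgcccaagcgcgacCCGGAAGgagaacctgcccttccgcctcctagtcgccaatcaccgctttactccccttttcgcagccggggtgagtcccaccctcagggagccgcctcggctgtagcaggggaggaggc
Timmdc1: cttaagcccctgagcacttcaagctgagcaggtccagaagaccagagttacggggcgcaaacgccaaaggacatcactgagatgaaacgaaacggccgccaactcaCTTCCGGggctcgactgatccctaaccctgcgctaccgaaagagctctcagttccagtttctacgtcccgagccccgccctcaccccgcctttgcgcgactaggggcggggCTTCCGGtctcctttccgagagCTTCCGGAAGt
Tomm20: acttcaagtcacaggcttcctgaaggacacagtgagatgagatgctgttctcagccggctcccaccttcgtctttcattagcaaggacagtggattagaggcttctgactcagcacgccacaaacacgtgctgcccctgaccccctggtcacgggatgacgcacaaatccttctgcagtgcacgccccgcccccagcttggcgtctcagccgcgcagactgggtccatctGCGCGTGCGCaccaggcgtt
The single match in Chchd3 starts 130 bases and that in Immt 119 bases before the RefSeq start. Timmdc1 holds 4 matches, of which 2 overlap each other close to the start, on opposite strands. Tomm20 holds no ETS match in this window and 1 NRF1 match. The 4 printed promoters do not stand for the set. The ETS motif was also found for Tomm34, which rose at 72 h, and for Timm10 and Timm8b, which passed at neither time. The other gene with an NRF1 match, Chchd4, passed at neither time.

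In the outer-membrane gate the channel genes fell at both times, and the receptors moved in either direction at 72 h. Tomm40, the pore of the TOM complex, read 41.7, 36.4 and 36.1 CPM in the V libraries and 29.8, 29.9 and 31.1 CPM in DOX at 16 h. All DOX libraries were below all V libraries, and the change was -0.33 ± 0.08 (adjusted p = 0.0127). Without the first V library this call was lost, at -0.26 and an adjusted p of 0.0582. At 72 h the same gene read 39.4, 41.6 and 37.0 CPM in V and 27.0, 28.6 and 31.8 CPM in DOX, again without overlap, and fell by 0.43 on the log2 scale (adjusted p = 0.00331).

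Tomm40l, a second gene for a Tomm40-like channel protein, also fell at both times. Its levels were 51.1, 45.7 and 43.0 CPM in V and 28.2, 31.7 and 29.5 CPM in DOX at 16 h, a change of -0.65 ± 0.12 (adjusted p = 0.00363). By 72 h the V libraries held 48.1, 48.7 and 51.6 CPM and the DOX libraries 27.1, 29.3 and 35.1 CPM, a change of -0.70 ± 0.10 (adjusted p = 0.000479). Groups did not overlap at either time. Among the small TOM subunits, which stabilise the complex, Tomm5 was lower at both times (-0.55 ± 0.16 and -0.60 ± 0.11). Its call at 16 h was lost without DOX library 1, V library 2 or V library 3 (adjusted p = 0.0662 to 0.0865).

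Tomm20, the receptor that first reads the presequence of an incoming protein, rose at 72 h. At 16 h it read 69.5, 76.4 and 75.3 CPM in V and 71.2, 69.3 and 72.6 CPM in DOX, overlapping ranges with a change of -0.05 ± 0.10 (adjusted p = 0.71). By 72 h it read 63.4, 75.0 and 70.8 CPM in V and 112, 95.4 and 113 CPM in DOX. Every DOX library at 72 h was above every V library, a change of 0.61 ± 0.10 (adjusted p = 0.000806). Tomm20 has a copy in the table of 72 h, Gm14494, that matches 435 bases of its transcript at 99.5% identity, so reads of the pair cannot be fully told apart. That copy carried 12.9% to 17.2% of the count of Tomm20 per library and rose as well, by 0.82 ± 0.14 (adjusted p = 0.00138).

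Tomm7, a small subunit, also rose at 72 h. It read 46.2, 46.3 and 46.0 CPM in V and 42.8, 42.9 and 42.8 CPM in DOX at 16 h, a change of -0.11 ± 0.12 that did not pass (adjusted p = 0.503). At 72 h the values were 37.8, 49.6 and 44.9 CPM in V and 58.6, 55.7 and 60.7 CPM in DOX, so the groups separated and the gene rose by 0.41 ± 0.10 (adjusted p = 0.00832). Tomm70a, the receptor for carrier proteins that arrive with cytosolic chaperones, fell at 72 h. Its levels were 80.0, 84.9 and 83.9 CPM in V and 82.2, 92.5 and 95.3 CPM in DOX at 16 h, then 88.5, 79.4 and 79.4 CPM and 70.7, 57.2 and 72.0 CPM at 72 h. The change was 0.12 ± 0.08 (adjusted p = 0.263) at 16 h and -0.31 ± 0.10 (adjusted p = 0.0302) at 72 h, and the second call was lost without DOX library 2 or any 1 of the V libraries (adjusted p = 0.0514 to 0.107). The gene Nit2 overlaps it on the opposite strand, and the labels do not state whether counting used the strand. Nit2 itself changed by -0.19 ± 0.11 (adjusted p = 0.161) at 72 h.

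The other TOM genes were Tomm22, the central receptor, which did not pass at 16 h (-0.16 ± 0.10) and fell at 72 h (-0.29 ± 0.07), and Tomm6, which passed at neither time (-0.04 ± 0.09 and 0.14 ± 0.10). Over the whole complex, 3 of 8 genes were lower and none higher at 16 h, against 16.6% and 15.6% of all genes. The 37.5% called in either direction was near the 32.3% of all genes. At 72 h 5 of 8 were lower and 2 higher, against 27.2% and 26.5% of all genes. In either direction that is 87.5%, against 53.7%. Tomm34, a cytosolic partner of chaperones that helps keep cargo unfolded, read 10.7, 11.2 and 10.7 CPM in V and 13.6, 14.7 and 13.2 CPM in DOX at 72 h. It rose by 0.35 ± 0.10 there (adjusted p = 0.0189), a call lost under 4 of 13 alternative settings, among them without DOX library 2, V library 1 or V library 3 (adjusted p = 0.0541 to 0.0611), after a change of 0.23 ± 0.11 at 16 h that did not pass.

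Samm50, the barrel core of SAM, had the smallest change among the genes called at 72 h. At 16 h it read 161, 153 and 164 CPM in V and 145, 152 and 147 CPM in DOX (-0.11 ± 0.06, adjusted p = 0.203), lower in every DOX library but not past the test. At 72 h it read 151, 155 and 150.4 CPM in V and 118, 135 and 136 CPM in DOX, a fall of 0.23 on the log2 scale (adjusted p = 0.0413) that was lost under 6 of 13 alternative settings, among them without DOX library 1 or any 1 of the V libraries (adjusted p = 0.0654 to 0.13). Chchd4, the oxidoreductase at the heart of the MIA pathway, passed at neither time. It read 23.5, 22.9 and 23.3 CPM in V and 17.0, 19.9 and 19.3 CPM in DOX at 16 h (-0.31 ± 0.13, adjusted p = 0.0747), a difference without overlap, and 21.8, 21.9 and 20.5 CPM and 21.8, 17.0 and 23.7 CPM at 72 h, where the groups overlapped (-0.04 ± 0.12, adjusted p = 0.798).

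The small TIM chaperones, whose rings shield hydrophobic cargo, were called about as often as other genes at 16 h, where 1 of 6 fell and 1 rose (33.3%, against 32.3% of all genes). At 72 h 1 of 5 fell and none rose, against 53.7% of all genes called. Timm13 was the one that fell: it read 25.9, 27.7 and 24.4 CPM in V and 20.3, 17.1 and 17.3 CPM in DOX at 16 h (-0.51 ± 0.10, adjusted p = 0.00449). At 72 h Timm13 read 22.9, 28.9 and 26.7 CPM in V and 19.9, 20.7 and 23.3 CPM in DOX, where the ranges overlapped and the call (-0.30 ± 0.11, adjusted p = 0.0412) was lost under 6 of 13 alternative settings, among them without DOX library 1 or 2 or V library 2 or 3 (adjusted p = 0.0923 to 0.139). Timm9 was the one gene of the whole set that rose at 16 h, from 11.7, 9.97 and 9.74 CPM in V to 14.9, 16.5 and 13.7 CPM in DOX. Its change of 0.52 ± 0.16 (adjusted p = 0.0273) was lost when the first or the second DOX library, or the second or the third V library, was left out (adjusted p = 0.0609 to 0.0899). Timm10, Timm10b and Timm8b passed at neither time and Timm8a1 did not pass at 16 h, with changes between -0.28 and 0.18. Timm8a1 has 1 near-identical copy in the genome, not in the tables, which matches 612 of its bases exactly. Timm10b overlaps Arfip2 on the opposite strand, which held 65.2% to 84.8% of its count at 72 h and rose there by 0.42 ± 0.10 (adjusted p = 0.0055). Timm8b overlaps Nkapd1 on the opposite strand, which held 15.8% to 31.6% of its count at 16 h. Nkapd1 rose at 16 h by 0.38 ± 0.12 (adjusted p = 0.0365) and did not pass at 72 h (0.28 ± 0.11, adjusted p = 0.0602).

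TIM22, the insertase for carrier proteins such as the ADP/ATP carriers, included the largest fall of the set at 72 h. Timm22, its channel, read 16.8, 19.9 and 18.0 CPM in V and 11.7, 13.1 and 10.8 CPM in DOX at 16 h, a change of -0.62 ± 0.13 (adjusted p = 0.00669). The values at 72 h were 16.2, 18.3 and 18.0 CPM in V and 8.62, 8.85 and 9.48 CPM in DOX. No library overlapped the other group at either time, and the later change of -0.96 ± 0.10 (adjusted p = 0.000101) is a fold of 0.515.

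Timm29, a subunit of TIM22 found in animals that links it to TOM, fell at 72 h and not at 16 h. It read 59.0, 58.5 and 57.2 CPM in V and 61.7, 69.8 and 64.5 CPM in DOX at 16 h, where DOX was the higher group in every library but the change of 0.17 ± 0.09 did not pass (adjusted p = 0.187). By 72 h it read 57.1, 49.1 and 51.6 CPM in V and 31.2, 30.2 and 35.4 CPM in DOX, and fell by 0.71 on the log2 scale (adjusted p = 0.00026). The gene Yipf2 overlaps Timm29 on the opposite strand and carried 6.35% to 11.3% of its count at 16 h, where it changed by 0.31 ± 0.17 (adjusted p = 0.186).

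In TIM23, the presequence translocase, 5 of 6 genes fell at 16 h and 4 of 6 at 72 h. Of all genes, 16.6% and 27.2% fell, and 32.3% and 53.7% were called in either direction. Timm23, the channel, read 173, 156 and 173 CPM in V and 109, 109 and 117 CPM in DOX at 16 h, a change of -0.59 ± 0.08 (adjusted p = 0.00211). By 72 h it read 158, 161 and 152 CPM in V and 103, 114 and 125 CPM in DOX, a change of -0.46 ± 0.09 (adjusted p = 0.00237). The groups stood apart at both times. Timm23 has 6 near-identical copies elsewhere in the genome. The 1 listed in the table of 72 h, Gm10273, held 0 to 78 counts per library, at most 2.85% of the pair.

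Timm50, the receptor that hands presequences to the channel, read 26.2, 26.0 and 26.2 CPM in V and 22.4, 20.8 and 19.8 CPM in DOX at 16 h (-0.32 ± 0.08, adjusted p = 0.0136). This call was lost without the third DOX library (adjusted p = 0.0545). At 72 h Timm50 read 23.7, 27.9 and 23.8 CPM in V and 17.0, 19.5 and 17.7 CPM in DOX (-0.48 ± 0.10, adjusted p = 0.00305). Timm44, which anchors the import motor to the channel, showed 65.6, 59.7 and 61.9 CPM in V and 49.7, 47.9 and 47.3 CPM in DOX at 16 h (-0.37 ± 0.10, adjusted p = 0.0196), and 63.2, 62.9 and 58.8 CPM and 37.8, 41.8 and 39.4 CPM at 72 h (-0.64 ± 0.07, adjusted p = 0.000151). Both genes had DOX libraries below all V libraries at both times. Timm21, which couples the translocase to TOM and to the respiratory chain, had 27.5, 33.9 and 29.1 CPM in V and 18.4, 18.5 and 19.0 CPM in DOX at 72 h, a change of -0.70 ± 0.10 (adjusted p = 0.000364) after -0.41 ± 0.12 at 16 h. The 16 h call of Timm44 was lost without DOX library 2 or 3 or V library 1 or 3 (adjusted p = 0.0521 to 0.0727). That of Timm21 was lost without any 1 of the 6 libraries but V library 3 (adjusted p = 0.0518 to 0.0828).

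Timm17a and Timm17b are alternative partners of Timm23 in the channel. Timm17a read 99.99, 105 and 98.1 CPM in V and 74.2, 72.5 and 75.9 CPM in DOX at 16 h, a change of -0.44 ± 0.07 (adjusted p = 0.00321). By 72 h its groups overlapped, with 96.7, 90.3 and 95.8 CPM in V and 86.1, 93.9 and 80.9 CPM in DOX (-0.12 ± 0.08, adjusted p = 0.258). Timm17b passed at neither time (-0.06 ± 0.09 and -0.01 ± 0.11). Timm17a has 1 near-identical copy in the genome, not in the tables, with a match of 516 bases at 96.3% identity.

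Of the MICOS genes, 4 of 5 fell at 16 h and 4 of 4 at 72 h, against 16.6% and 27.2% of all genes. The shares of all genes called in either direction were 32.3% and 53.7%. Immt, the core subunit that shapes the cristae junction, read 475, 451 and 488 CPM in V and 377, 385 and 369.8 CPM in DOX at 16 h, a change of -0.32 ± 0.07 (adjusted p = 0.00723). At 72 h its V libraries held 448, 417 and 437 CPM and its DOX libraries 261, 282 and 287 CPM, a change of -0.65 ± 0.08 (adjusted p = 0.000214). Chchd3, a CHCH subunit that joins Immt and tethers it to SAM, read 273, 265 and 273 CPM in V and 181, 181 and 175 CPM in DOX at 16 h (-0.59 ± 0.08, adjusted p = 0.00211), and 339, 373 and 341 CPM and 216, 235 and 240.5 CPM at 72 h (-0.61 ± 0.08, adjusted p = 0.000399). For both genes every DOX library lay below every V library at each time. Chchd6, its paralog in the complex, was a low gene with the largest fall of the set at 16 h, from 4.53, 4.62 and 5.23 CPM in V to 2.73, 3.24 and 1.89 CPM in DOX (-0.87 ± 0.21, adjusted p = 0.0112).

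Apoo and Apool are the apolipoprotein O subunits of MICOS. Apoo read 104, 105 and 100.4 CPM in V and 75.2, 72.5 and 82.1 CPM in DOX at 16 h (-0.43 ± 0.08, adjusted p = 0.00371) and fell by 0.46 on the log2 scale at 72 h. Its counts are shared in part with the pseudogene Apoo-ps, which matches 586 of its bases exactly, held 27.1% to 37.0% of its count at 72 h and also fell at 72 h (-0.57 ± 0.15, adjusted p = 0.0109). Apool read 37.1, 34.1 and 33.3 CPM in V and 30.3, 31.6 and 31.4 CPM in DOX at 16 h, which did not pass (-0.17 ± 0.09, adjusted p = 0.168). Its values at 72 h were 37.1, 39.0 and 38.5 CPM in V and 24.7, 25.6 and 25.4 CPM in DOX, without overlap and with a change of -0.60 ± 0.07 (adjusted p = 0.000221).

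Of the other CHCH genes, Chchd2 and Chchd10 encode related proteins of the intermembrane space, and human mutations in each cause neurodegenerative disease. Chchd10 read 493, 471 and 498 CPM in V and 387, 377 and 362 CPM in DOX at 16 h (-0.38 ± 0.07, adjusted p = 0.00505), and 305, 318 and 309.9 CPM and 220.4, 244 and 244 CPM at 72 h (-0.40 ± 0.08, adjusted p = 0.00277). Chchd2 did not pass at 16 h and rose at 72 h. Its values were 340.4, 355 and 362 CPM in V and 388, 394 and 361 CPM in DOX at 16 h (0.11 ± 0.11, adjusted p = 0.443), with overlap. At 72 h they were 297, 368 and 329 CPM in V and 407, 405 and 452 CPM in DOX, and the gene rose by 0.35 ± 0.10 (adjusted p = 0.0165), a call lost under 3 of 13 alternative settings, among them without the DOX library whose number no label uses (adjusted p = 0.0529) or V library 3 (adjusted p = 0.0553). Chchd2 has 4 near-identical copies in the genome, none of them in the tables.

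Chchd1, a subunit of the mitochondrial ribosome, and Chchd7 passed at neither time, and Chchd5 did not pass at 16 h, with changes between -0.21 and 0.21. Timmdc1, named for its likeness to the TIM23 channel genes but known as an assembly factor of respiratory complex I, had the smallest p of the set at 16 h. It read 30.9, 30.7 and 34.0 CPM in V and 18.1, 18.4 and 19.1 CPM in DOX, a change of -0.78 ± 0.09 (adjusted p = 0.00211). At 72 h it read 29.7, 26.9 and 24.1 CPM in V and 18.8, 17.8 and 20.8 CPM in DOX, without overlap (-0.49 ± 0.10, adjusted p = 0.0031).

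**Figure D2:**
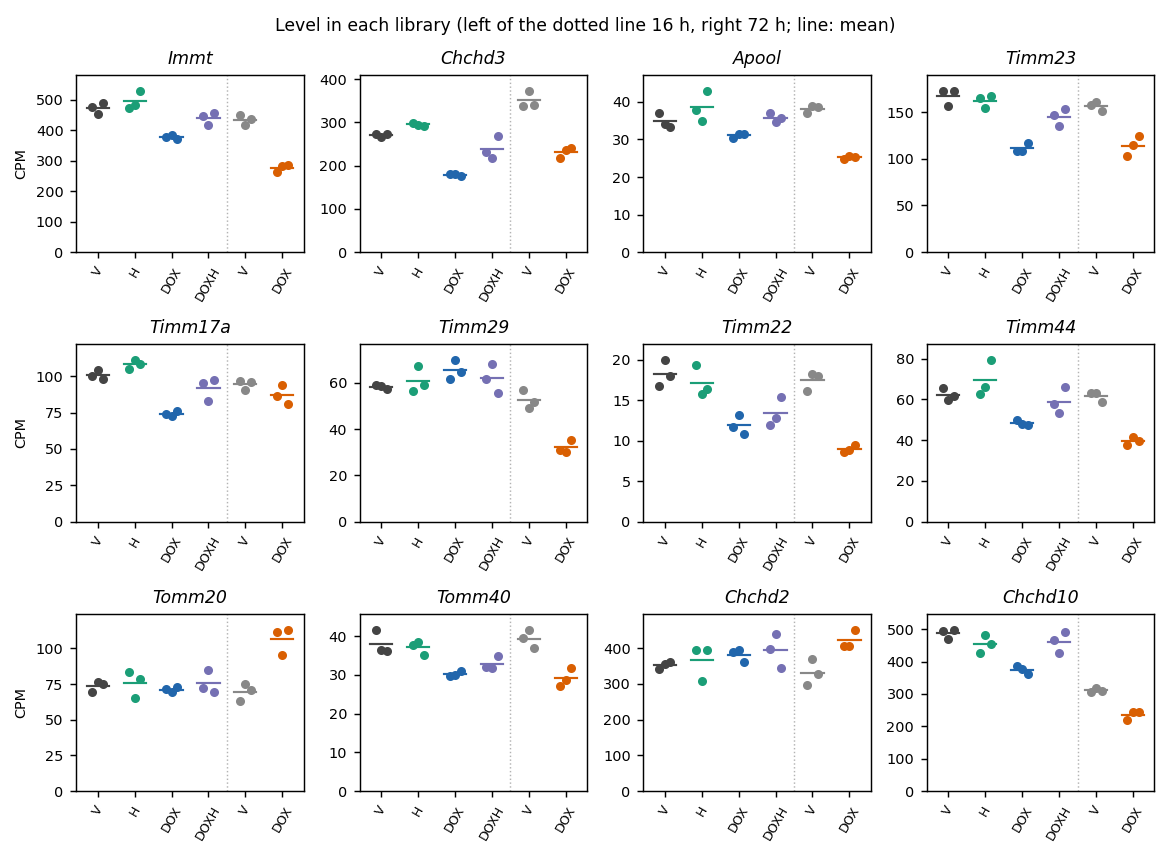
CPM (vertical axis, from 0) in each of the 18 libraries for 12 genes, with a line at each group's mean; the 4 groups of 16 h stand left of the dotted line and V and DOX of 72 h right of it. Immt, Chchd3, Timm23, Timm22 and Timm44 are lower in DOX at both times, Apool separates further at 72 h, Timm29 is higher in DOX at 16 h and lower at 72 h, and Tomm20 and Chchd2 are higher in DOX at 72 h.

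The difference between the 2 times was tested directly, as the DOX change at 72 h minus that at 16 h, and 7 of the 33 genes passed: 3 towards higher and 4 towards lower, against 12.6% and 13.8% of all genes. The downward shift was largest for Timm29 (-0.88 ± 0.13, adjusted p = 0.000581), followed by Apool (-0.44 ± 0.11, adjusted p = 0.00766), Tomm70a (-0.43 ± 0.13, adjusted p = 0.0228) and Immt (-0.34 ± 0.09, adjusted p = 0.0156). Upward shifts were found for Tomm20 (0.66 ± 0.14, adjusted p = 0.00406), Tomm7 (0.50 ± 0.16, adjusted p = 0.0331) and Timm17a (0.32 ± 0.10, adjusted p = 0.0329). Leaving out V library 1 of 16 h or of 72 h ended the call of Tomm70a (adjusted p = 0.0547 and 0.0618). Leaving out single libraries ended that of Timm17a (adjusted p up to 0.0879, all but V library 3 of 16 h, V library 1 of 72 h and the DOX library whose number no label uses) and that of Tomm7 (adjusted p up to 0.0858, all but V library 2 of 72 h). The share of genes that passed, 21.2%, was below the 26.5% of all genes, and 10 of the 33 had an unadjusted p under 0.05, as did 39.9% of all genes. Of the 14 genes lower at both times, Immt alone passed, and the values of the others ran from -0.35 ± 0.16 for Timm22 to 0.28 ± 0.14 for Timmdc1.

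The balance within pairs of related genes was measured as the ratio of their CPM in each library, which needs no scaling between libraries. The log2 ratio of Chchd2 to Chchd10 was -0.54, -0.41 and -0.46 in V at 16 h and 0.00, 0.06 and -0.00 in DOX. At 72 h it was -0.04, 0.21 and 0.09 in V and 0.89, 0.73 and 0.89 in DOX. The balance thus moved towards Chchd2 by 0.49 at 16 h and 0.75 at 72 h, with no overlap at either time. An exact permutation test, two-sided, gave p = 0.1 for each, the smallest that 3 against 3 libraries allow.

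The ratio of Timm17a to Timm17b moved by -0.39 at 16 h without overlap (exact permutation p = 0.1) and by -0.11 at 72 h with overlap (exact permutation p = 0.5). For Tomm40 over Tomm40l the shift was 0.32 at 16 h and 0.27 at 72 h, both without overlap (exact permutation p = 0.1). Apoo over Apool moved by -0.27 at 16 h and by 0.14 at 72 h, each without overlap (exact permutation p = 0.1), so that the sign differed between the times. This difference in sign was not tested. The pseudogene Apoo-ps, which shares counts with Apoo, held 7.31% to 16.6% of the Apoo count at 16 h and 27.1% to 37.0% at 72 h. The ratios of Timm10 to Timm10b and of Timm8a1 to Timm8b overlapped wherever they were measured. In all, 6 pairs were compared at 16 h and 5 at 72 h, and none could pass a threshold of 0.05 in this design.

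**Figure D3:**
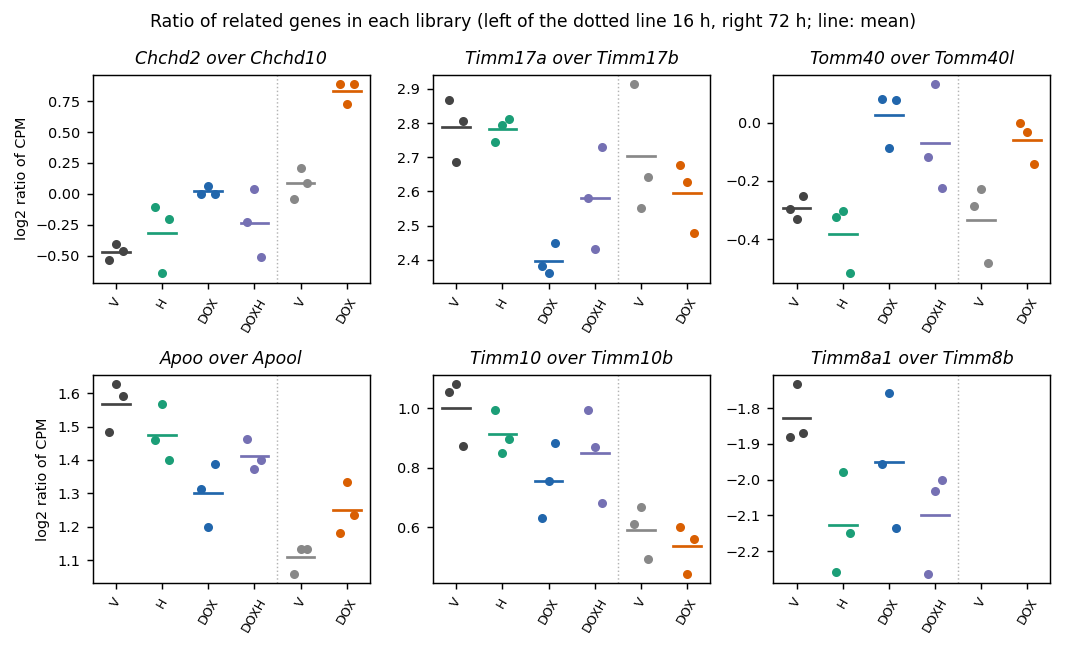
Log2 ratio of the CPM of related genes (vertical axis, a separate scale in each panel) in each library, with a line at each group's mean and the dotted line between 16 h and 72 h. Chchd2 over Chchd10 is higher in DOX than in V at both times, and Timm17a over Timm17b is lower in DOX without overlap at 16 h and overlaps at 72 h.

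Hesperitin given alone changed no gene of the set by this test. In H against V at 16 h none of the 36 genes passed, nor did any of the 10393 genes (0%). Changes ran from -0.25 to 0.32 with SEs of 0.06 to 0.19. Chchd1 was the 1 gene with an unadjusted p under 0.05, where 6.39% of all genes had one; it read 35.6, 33.9 and 34.8 CPM in V and 48.1, 37.7 and 43.9 CPM in H (0.32 ± 0.09, adjusted p = 0.556). The H libraries lay all below V for 1 gene and all above for 4, against 7.53% and 8.04% of all genes. DESeq2 also called none of the set and 13 genes in all. The H libraries held 17664089 to 19869092 counts and those of the other 16 h groups 9255708 to 11074498. Any effect of this difference cannot be told apart from that of treatment in comparisons that use H, the interaction included.

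Before the values of DOXH are given, the spread of its libraries must be stated. On the first principal component of all genes at 16 h, which carried 60.8% of the variance, the scores of the DOXH libraries were 8.28, 35.1 and -17.7. The DOX libraries scored 29.4 to 42.2 and the V libraries -20.7 to -18.0. The median log2 difference of the import and CHCH genes from the V mean was -0.04, -0.11 and -0.05 in the 3 DOXH libraries, against -0.24, -0.23 and -0.22 in DOX and 0.07, -0.02 and 0.12 in H. Their summed level was 2916 to 2993 CPM in DOXH, 2543 to 2605 CPM in DOX and 3040 to 3102 CPM in V. In the second DOXH library, which lay among the DOX libraries over all genes, the set summed to 2916 CPM, above every DOX library and below every V library.

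Chchd3 illustrates the pattern, with 233, 218 and 268 CPM in DOXH, all above the 181, 181 and 175 CPM of DOX. Timm23 held 147, 135 and 154 CPM in DOXH and Timmdc1 26.3, 22.1 and 27.3 CPM, again above every DOX library, and for these 2 genes below every V library. Immt read 445, 415 and 457 CPM and Chchd10 466, 427 and 491 CPM in DOXH, above the DOX libraries and overlapping V. Tomm20 read 72.4, 85.0 and 69.6 CPM and Chchd2 398, 439.8 and 345 CPM, overlapping both groups. Over the 36 genes, 17 had all DOXH libraries above all DOX libraries and 0 had them all below, against 10.1% and 8.72% of all genes.

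None of these differences passed the test. In DOXH against DOX, edgeR called 0 of the 36 genes and 0 of all genes (0%), and 13 of the set had an unadjusted p under 0.05, as did 18.8% of all genes. The smallest adjusted p, 0.130, was shared by Chchd3 (0.42 ± 0.08), Timm23 (0.38 ± 0.08) and Timmdc1 (0.45 ± 0.09). DESeq2 called 8 of the set, all higher in DOXH, and 390 genes in all. Without the second DOXH library edgeR called 10, all higher, and 1554 genes in all. Both named Chchd3, Timm23, Timmdc1, Timm17a, Chchd10, Apoo and Immt.

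Against V, DOXH likewise gave 0 called genes of the set and 0 in all (0%), with 9 of the set at an unadjusted p under 0.05 and 16.8% of all genes. The DOXH libraries lay all below V for 10 genes and all above for 2, against 9.84% and 9.4% of all genes. DESeq2 called none of the set and 131 genes in all. When the third DOXH library was left out, edgeR called 5 of the set (Tomm40l, Timm22, Timmdc1 and Chchd3 lower, Tomm34 higher) and 1674 of the 10393 genes. Against H, 0 of the set were called, against 0.154% of all genes (0.115% higher and 0.0385% lower), with 13 of the set and 24.6% of all genes at an unadjusted p under 0.05. The DOXH libraries lay all below H for 10 genes and all above for 1, against 10.8% and 10.3% of all genes. DESeq2 called 5 of the set and 718 genes in all in that comparison, and without the third DOXH library edgeR called 9 of the set and 2298 genes in all. The interaction of the 2 compounds was called for 0 genes of the set and 0 in all (0%), with 7 of the set and 11.8% of all genes at an unadjusted p under 0.05, and DESeq2 called 2, Chchd10 and Timm23, and 53 genes in all. The comparisons of DOXH and of DOX with V share the V libraries, and those of DOXH with DOX and of DOX with V share the DOX libraries, so their values are given side by side only.

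**Figure D4:**
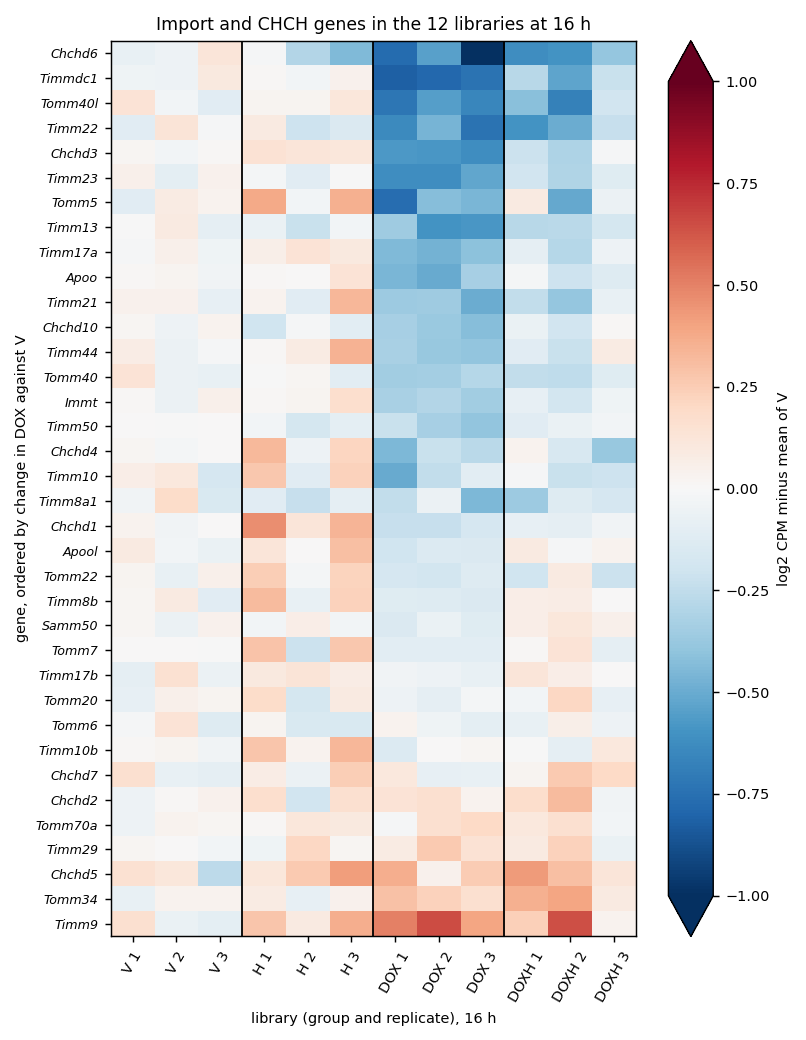
Log2 CPM minus the mean of V (colour, limited to -1 and 1) for the 36 genes (rows, ordered by their change in DOX) in the 12 libraries at 16 h (columns). The 3 DOX columns are blue over most of the upper rows, and the 3 DOXH columns are paler, with medians of -0.04, -0.11 and -0.05.

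Other genes of the import route and of the cristae, taken from a list that excludes the set, were also described by their counts. At 16 h 40% of them were called in either direction, against 32.3% of all genes. Of the 30 tested, 12 fell (40%, against 16.6% of all genes) and none rose (against 15.6%), with a median of -0.23. Those with the smallest p were Mtx2 of the SAM complex (-0.57 ± 0.09), Dnajc15 of the import motor (-0.48 ± 0.08), Pmpcb, the catalytic subunit of the presequence peptidase (-0.50 ± 0.09), and Hspe1, a matrix co-chaperonin (-0.51 ± 0.10). At 72 h 12 of 26 fell (46.2%, against 27.2% of all genes) and 3 rose (11.5%, against 26.5%), with a median of -0.27. In either direction 57.7% were called, near the 53.7% of all genes. Opa1, the inner-membrane fusion dynamin that also shapes cristae, fell by 1.34 on the log2 scale, Pmpcb by 0.97, Aifm1, which holds Chchd4 at the inner membrane, by 0.88, and Mtx2 by 0.45. The 3 that rose were Tmem11 (0.32 ± 0.09), Gfer (0.49 ± 0.15), which reoxidises Chchd4, and Dnlz (0.28 ± 0.09).

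Cargo of the folding route was listed separately, as 14 genes for twin-cysteine proteins outside the set. At 16 h 5 of 14 fell (35.7%, against 16.6% of all genes) and none rose (against 15.6%). The 35.7% called in either direction was near the 32.3% of all genes. At 72 h 5 of 10 fell (50%, against 27.2%) and 1 rose (10%, against 26.5%), and the 60% called in either direction was near the 53.7% of all genes. Ndufa8, a subunit of complex I, fell by 0.56 and then 0.49 on the log2 scale, and Cmc2, an assembly factor of cytochrome oxidase, fell by 0.67 and then 1.34. Cox19, another such factor, differed in sign, with -0.63 ± 0.15 (adjusted p = 0.00966) at 16 h and 0.34 ± 0.10 (adjusted p = 0.0159) at 72 h, and the difference between the times passed (0.96 ± 0.19, adjusted p = 0.00237).

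Markers of cell types moved with doxorubicin as well, and fewer cells of a type cannot be told apart from less RNA per cell in whole heart. Of all genes, 16.6% fell and 15.6% rose at 16 h, and 27.2% fell and 26.5% rose at 72 h. Of 10 cardiomyocyte markers all 10 fell at 16 h and 9 at 72 h, and their summed level was 35637 to 38184 CPM in DOX against 61268 to 69445 CPM in V at 16 h, and 21727 to 26336 CPM against 52312 to 59271 CPM at 72 h. It was 42878 to 65273 CPM in DOXH. Of the macrophage markers 2 rose and 1 fell at each time, of 6 and 5, none of 5 neutrophil markers passed at 16 h although their sum was 131 to 243 CPM in DOX against 20.9 to 68.6 CPM in V, and all 3 measured ones rose at 72 h. Of 6 endothelial markers 2 fell at 16 h, and at 72 h 3 rose and 1 fell. None of 6 fibroblast markers passed at 16 h and 2 of 5 rose at 72 h. Of 5 erythroid markers 2 fell at 16 h and all 5 at 72 h, from a summed 1436 to 3523 CPM in V to 20.6 to 33.0 CPM in DOX. Genes of the mitochondrial genome took 27.2% to 30.3% of counts in DOX and 35.4% to 37.4% in V at 72 h. With the mitochondrial genome left out of the counts, DOX against V gave 17 calls in the set at 16 h and 23 at 72 h. The part of the cell types or of the mitochondrial genome in the changes described above was not tested.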

How the data were processed

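Heart RNA was sequenced from 24 samples in 8 groups, of which 18 libraries in 6 groups were used. The authors deposited expected counts per gene, 1 table for 16 h and 1 for 72 h; RSEM, DESeq2, GRCm38 and mm10 are named in the submitters' processing notes, with no versions. Among the columns for 72 h, 6 have names that match none of the labels and were left out, and 1 DOX column has a replicate number that no label uses, so it counts as the third DOX library with its number left aside.

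The expected counts were rounded to whole numbers. Each table was filtered with filterByExpr and scaled with TMM factors, and all groups of a table entered 1 robust quasi-likelihood fit (edgeR 4.0.16, limma 3.58.1, R 4.3.3), tested on simulated data beforehand. The change between times came from 1 fit over both tables. P-values were adjusted by Benjamini-Hochberg over all genes, at a threshold of 0.05, and SEs are the log2 change divided by the square root of F. CPM values of libraries use the TMM factors. Differences in CPM ratios were tested by exact two-sided permutation.

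Named genes are, for each comparison, up to 8 with the smallest p in each direction, plus Tomm20, Tomm40, Timm23, Timm50, Immt, Samm50, Chchd2, Chchd4 and Chchd10. The genes and lists were chosen with earlier results of these data known. Alternatives were DESeq2 1.42.0, other scaling factors, other filters, the mitochondrial genome left out, only the groups compared, a replicate block and leaving out each library. The labels do not say that a number marks a shared animal, litter or day, so the main fit has no block. All samples carry the same batch label. Promoters came from RefSeq and loci from GENCODE, both GRCm38; a near-identical copy is a match of at least 200 bases at 95% identity.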

Additional observations from a re-analysis of the deposited data

Results flagged for a closer look

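The doxorubicin change differed between 72 h and 16 h for 7 of the 33 genes, by a test of the difference itself. Timm29 (-0.88 ± 0.13, adjusted p = 0.000581), Apool (-0.44 ± 0.11, adjusted p = 0.00766), Tomm70a (-0.43 ± 0.13, adjusted p = 0.0228) and Immt (-0.34 ± 0.09, adjusted p = 0.0156) were lower at 72 h relative to 16 h. Tomm20 (0.66 ± 0.14, adjusted p = 0.00406), Tomm7 (0.50 ± 0.16, adjusted p = 0.0331) and Timm17a (0.32 ± 0.10, adjusted p = 0.0329) were higher. The 2 times were deposited as separate tables, so time and table cannot be told apart in the levels, and the difference compares changes within each table. The calls of Timm17a and Tomm7 were lost in 10 and 12 of their 20 alternative settings, and that of Tomm70a without V library 1 of 16 h (adjusted p = 0.0547) or of 72 h (adjusted p = 0.0618). That of Tomm20 was lost under the replicate block alone (adjusted p = 0.0551).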

How the results depend on the processing

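None of the 47 called gene results reversed under any alternative, and in 676 gene and setting combinations the call was kept in 610 and lost in 66. Calls held under every setting for 32 of the 47. For DOX against V, leaving out 1 library gave 14 calls each time at 16 h (1928 to 2409 genes in all) and 18 to 22 at 72 h (3397 to 4022). Leaving out 1 library gave 0 to 10 calls for DOXH against DOX (0 to 1554 genes in all), 0 to 9 for DOXH against H (0 to 2298), 0 to 5 for DOXH against V (0 to 1674), 0 to 3 for the interaction (0 to 254) and 4 to 6 for the difference between times (1495 to 1844), so calls over all genes moved with single libraries too. DESeq2 called 8 genes in DOXH against DOX, 5 in DOXH against H and 2 in the interaction (390, 718 and 53 genes in all), where edgeR called 0 of the set. The replicate block, which drops the DOX library whose number no label uses, gave 17 calls at 16 h and 20 at 72 h, and 4 in the difference between times, where Tomm20 did not pass (0.62, adjusted p = 0.0551). Of 20 same-numbered pairs 6 correlated above 0.1 (from -0.42 to 0.25). Both pairs at 72 h did (0.197 and 0.245), but 2 pairs are too few to take the numbers as a pairing, and at 16 h the pairs did not all deviate together. The cause of these shifts was not tested.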
